A study of Mus musculus with 6 samples.

Results

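A set of 10 heat shock chaperone genes, of 56884 genes listed in the count matrices, was followed through the lung and the cerebral cortex of young mice in which pericytes had lost Bdnf, Hgf or Nodal. The 10 genes were taken by their symbols: the inducible HSP70 genes Hspa1a and Hspa1b, the constitutive HSP70 gene Hspa8, the HSP110 gene Hsph1, the HSP40 gene Dnajb1, the cytosolic HSP90 genes Hsp90aa1 and Hsp90ab1, the small heat shock protein gene Hspb1, and the mitochondrial chaperonin genes Hspd1 and Hspe1. All 10 were listed in each of the 6 libraries. Their unique molecular identifiers (UMIs, each marking 1 captured transcript molecule) were summed per library over the cells of each type, and cell type names below stand for cells that resemble the type by marker genes (ciliated-like, pericyte-like and so on).

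The data were single-cell transcriptomes made on the BD Rhapsody platform, with 1 library per genotype and 2 mice pooled in each library. In the iPCKO animals, CreERT2 expressed from a Pdgfrb transgene deleted a floxed gene in Pdgfrb-expressing cells, which include pericytes. The control animals were littermates homozygous for the same floxed allele, namely Bdnf lox/lox, Hgf lox/lox or Nodal lox/lox, and the study names no CreERT2 transgene for them. Cre activity was induced with 50 µg tamoxifen on each day from P1 to P3, and the study's methods do not state separately whether the control littermates were injected. The Bdnf and Hgf pairs were lungs taken at P21 from which CD45+ cells and erythrocytes had been depleted, and the Nodal pair was cerebral cortex taken at P12. With 1 library per genotype, the effect of the genotype and differences between single libraries cannot be told apart, so no test was possible and none is given. The intervals below are exact 95% intervals for counting error only, and "higher" or "lower by 1.5-fold" is a size of difference between 2 libraries.

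Heat shock proteins bind unfolded or newly made proteins and keep them from aggregating. HSP70 proteins work in cycles driven by ATP with HSP40 partners such as Dnajb1, which bring the substrate and start ATP hydrolysis, and with HSP110 proteins such as Hsph1, which exchange the nucleotide. HSP90 proteins take over partly folded clients such as kinases and steroid receptors, small heat shock proteins such as Hspb1 hold unfolded protein without ATP, and Hspd1 with its lid Hspe1 folds proteins inside mitochondria. Heat and other protein-damaging stress, including warm enzymatic dissociation of tissue, activates the transcription factor HSF1, which binds inverted repeats of the letters GAA. Hspa1a and Hspa1b are the classic inducible targets, whereas Hspa8 and Hsp90ab1 are made constitutively in most cells.

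The promoter sequences of the members were examined for these repeats because HSF1 binds them. RefSeq promoter entries (GRCm38.p6 table) existed for 7 of the 10 members, and each was placed on GRCm39 by its single exact match. The search covered up to 250 bases before the start site for GAANNTTC and TTCNNGAA, each of which reads the same on both strands, and for 3-unit repeats, in which a pair of one kind overlaps a pair of the other kind by its inner unit. Sequences are written 5′ to 3′ on the strand of the gene, stop where an exon of a canonical transcript begins, and carry the matching letters in capitals.
Hspa1a: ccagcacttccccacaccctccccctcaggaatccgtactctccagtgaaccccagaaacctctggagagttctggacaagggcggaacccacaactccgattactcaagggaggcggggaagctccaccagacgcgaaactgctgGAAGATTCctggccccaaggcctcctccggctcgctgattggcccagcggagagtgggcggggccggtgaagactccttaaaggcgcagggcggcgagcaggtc
Hspb1: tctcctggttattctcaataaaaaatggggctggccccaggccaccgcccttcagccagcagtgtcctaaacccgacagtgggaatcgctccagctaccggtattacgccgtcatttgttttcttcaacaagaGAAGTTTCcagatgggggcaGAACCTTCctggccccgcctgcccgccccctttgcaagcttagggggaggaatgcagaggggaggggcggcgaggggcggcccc
Hsph1: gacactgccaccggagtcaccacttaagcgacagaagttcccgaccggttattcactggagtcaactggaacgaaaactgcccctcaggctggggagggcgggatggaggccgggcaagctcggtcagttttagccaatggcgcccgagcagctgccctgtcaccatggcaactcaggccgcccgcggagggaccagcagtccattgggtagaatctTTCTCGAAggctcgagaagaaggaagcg
Hspe1: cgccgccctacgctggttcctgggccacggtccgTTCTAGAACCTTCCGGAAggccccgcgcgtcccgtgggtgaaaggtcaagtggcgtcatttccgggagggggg
Dnajb1: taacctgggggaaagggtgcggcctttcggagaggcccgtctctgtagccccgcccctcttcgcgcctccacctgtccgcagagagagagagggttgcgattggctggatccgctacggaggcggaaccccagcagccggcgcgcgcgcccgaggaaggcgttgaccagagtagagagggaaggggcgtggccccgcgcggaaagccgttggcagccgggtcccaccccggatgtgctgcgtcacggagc
The Hspa1a sequence is chr17:35191133-35191382 on the minus strand, and the Hspa1b promoter at chr17:35178215-35178464 differed from it at 3 of 250 bases, outside the repeat. Hspb1 (chr5:135916523-135916759, plus strand) held 2 separate pairs, and Hsph1 (chr5:149559807-149560051, minus strand) held 1 pair between bases 33 and 26 before the start site. The 107 bases at chr1:55127184-55127290 lie between the canonical starts of Hspe1 on the plus strand and Hspd1 on the minus strand and serve as promoter sequence for both, and they held 3 overlapping pairs that form both 3-unit repeats. The remaining members lie at chr9:40711630-40731039 (Hspa8), chr12:110656842-110669166 (Hsp90aa1) and chr17:45878552-45891949 (Hsp90ab1). The Dnajb1 promoter (chr8:84334554-84334803, plus strand) held none of the letters searched. Either pair occurred in 12.9% of 27025 promoters of this length and a 3-unit repeat in 0.4%, so a single pair is a common feature and a match does not show binding.

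The libraries held 3237 to 24311 barcodes after a minimum of 1500 UMIs (700 in the Hgf libraries), and the Hgf lungs were shallower (medians of 3911 and 2841 UMIs per barcode) than the Bdnf lungs (7118 and 5056) and the cortices (7706 and 7791.5). Barcodes with markers of more than 1 type, 185 to 6253 per library, were left out. The pairs of libraries shared 21 to 457 barcodes, where independent draws would share 17.76 to 456.9, and the Nodal iPCKO shared more than that with the Hgf control (108 beside 80.23) and the Hgf iPCKO (116 beside 88.65). The targeted gene had a lower count in pericytes of each mutant, from 129 to 0 CPM for Nodal (184 and 0 UMIs), from 177 to 31.8 CPM for Hgf (23 and 10 UMIs) and from 16.2 to 7.54 CPM for Bdnf. The Bdnf values rest on 5 and 2 UMIs, and the interval of their log2 ratio (-4.50 to 1.5) covers no change.

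Among the 9 types with at least 50 cells in all 4 lung libraries, the inducible HSP70 genes had their highest medians in myofibroblasts. In myofibroblast-like cells Hspa1a stood at 681 CPM (UMIs of the gene per 1000000 UMIs of that cell type) in the Bdnf control, 660 in the Bdnf iPCKO, 507 in the Hgf control and 717 in the Hgf iPCKO. Hspa1b stood at 630, 695, 294 and 590 CPM in the same libraries. Pericyte-like cells (216 to 549 CPM of Hspa1a) and adventitial fibroblast-like cells (254 to 365 CPM) followed, and alveolar type 1 (AT1) and type 2 (AT2) epithelial cells were lowest, with 3.67 to 45.6 and 10.1 to 59.1 CPM. For Hspa1b, adventitial fibroblasts (368 to 541 CPM), pericytes (131 to 519) and ciliated cells (64.4 to 601) followed, and matrix fibroblasts (58.0 to 220) ranked 7 of 9. Smooth muscle, outside the 9 types, held 355 CPM of Hspa1b in the Bdnf control and 231 in the Hgf control. In the Bdnf iPCKO it held 723 CPM, above the myofibroblasts of that library. Neighbours in both orders overlapped over the 4 lung libraries, but all 4 myofibroblast values of Hspa1a lay above all 4 values of matrix fibroblasts, ciliated, endothelial, club, AT2 and AT1 cells. RNA outside cells, read from barcodes of 10 to 99 UMIs, carried Hspa1a at 138, 176, 39.8 and 70.0 CPM in the same libraries. The AT1 and AT2 values of each library lay below it, and endothelial cells held 171, 173, 39.4 and 42.4 CPM. How much of the count of a cell type comes from RNA outside cells was not tested. After each cell was thinned to 700 UMIs, 49.3%, 45.9%, 48.4% and 50.1% of myofibroblasts held Hspa1a or Hspa1b, against 1.02% to 8.37% of AT1 cells.

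In the lung the 10% of cells with the most Hspa1a and Hspa1b UMIs held a median of 52.8% of them over 43 combinations of library and cell type. For single genes the same median was 60% for Hspa1a, 64.5% for Hspa1b and 53.7% to 62.8% for Hspd1, Hsph1, Dnajb1, Hspb1 and Hspe1. It was 30.2%, 26.0% and 21.1% for the abundant Hsp90aa1, Hspa8 and Hsp90ab1. In the cortex, among the 6 types compared, pericytes carried Hspa1a at 139 CPM (control) and 143 CPM (Nodal iPCKO), fibroblasts at 75.6 and 77.8, microglia at 55.3 and 43.2, endothelial cells at 43.5 and 36.8, astrocytes at 5.55 and 7.07, and neurons at 4.71 and 5.69. Vascular smooth muscle cells could be read only in the iPCKO, where 69 cells passed the gate, and stood at 485 CPM of Hspa1a and 365 of Hspa1b, above the 6 types compared. For Hspa1b the order differed, with endothelial cells (43.0 and 39.8 CPM) above microglia (17.5 and 14.7). RNA outside cells carried 48.9 and 36.7 CPM of Hspa1a and 43.9 and 35.1 of Hspa1b, so the astrocyte and neuron values lie below it, and the endothelial values of both genes and the microglial values lie close to it or below it. Of the neurons, 0 of 69 in the control and 0.474% in the iPCKO held either gene after thinning, and 0 of 69 leaves room for a share up to 5.21% (exact binomial) of neurons with a UMI at the thinned depth. Before thinning, the same 69 neurons held 8 UMIs of Hspa1a and 10 of Hspa1b, so this limits detection and not expression.

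Hspa1a and Hspa1b are near-identical copies, so their sum is more certain than the split between them. Of 2918 windows of 50 bases in the Hspa1a transcript, 58.8% also occur in Hspa1b, but none of the 451 windows in the last 500 bases do. Even so, entries with a fraction held 5.11% to 22.3% of Hspa1a UMIs and 5.52% to 17.5% of Hspa1b UMIs per library, and in ciliated cells of the Bdnf pair 832 of 1253 and 1760 of 2897 UMIs of the pair lay in whole-number entries. The share of the pair assigned to Hspa1a was 52.0% and 48.7% in myofibroblasts of the Bdnf control and iPCKO, and 29.4% (26.9 to 32.1) and 43.2% (41.3 to 45.0) in ciliated cells. The ciliated share therefore differed between these libraries by more than counting error, and the split between the copies remains an estimate.

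**Figure D1:**
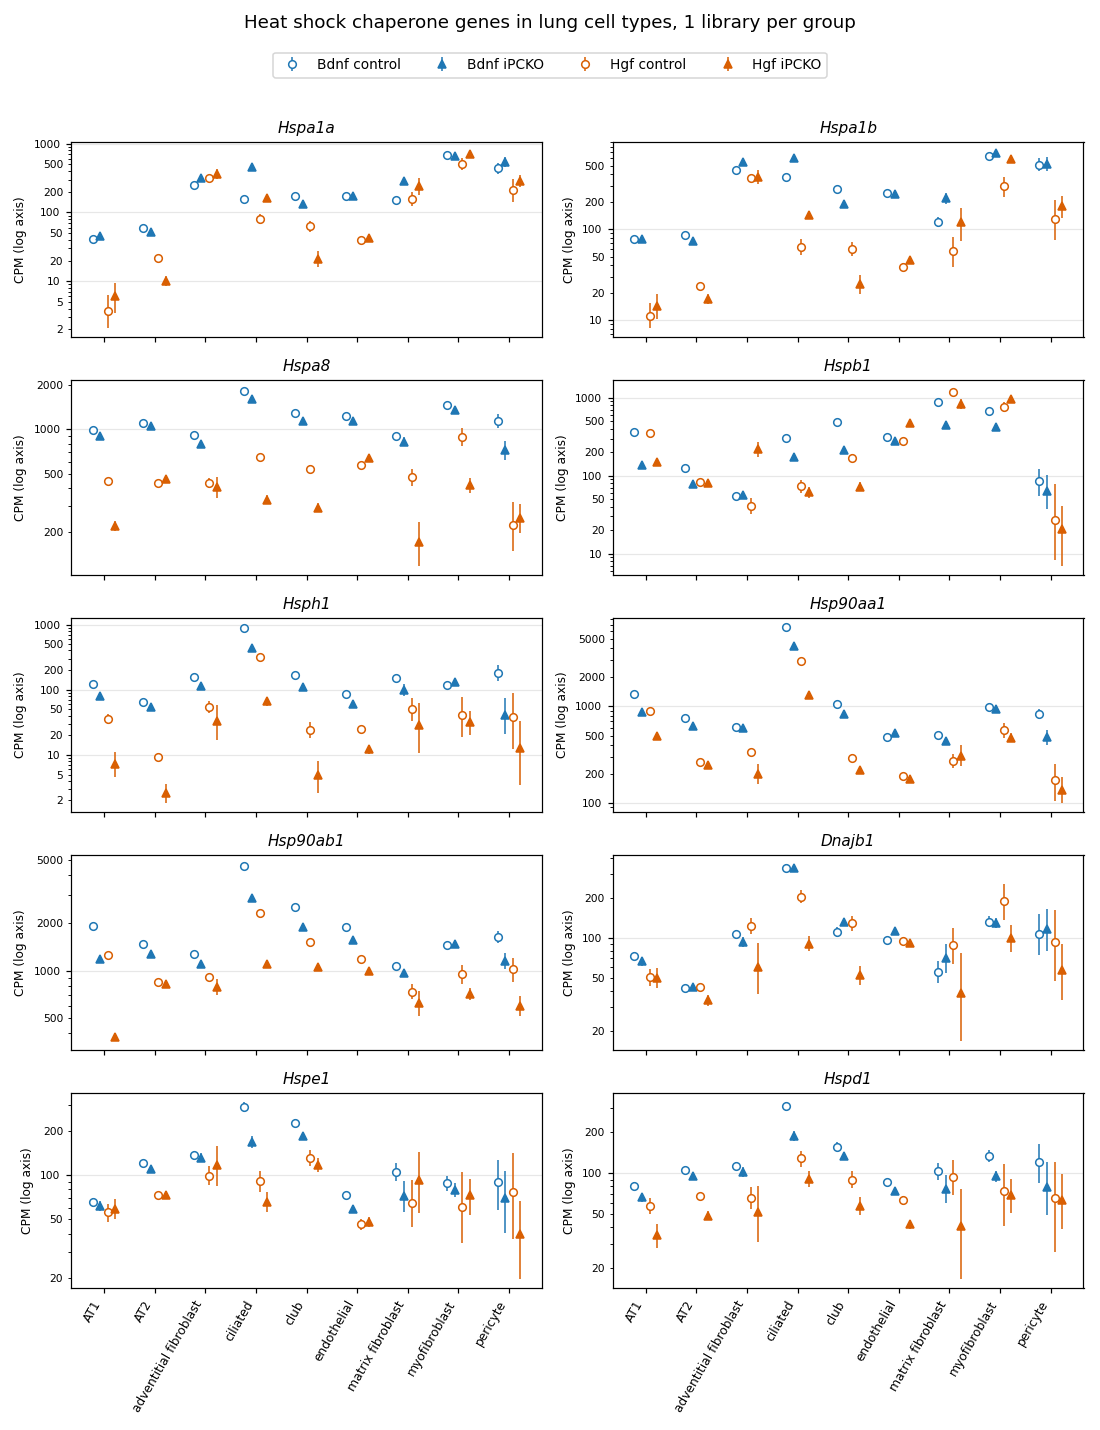
CPM (log axis) of the 10 members in the cell types of the 4 lung libraries, with exact 95% Poisson intervals. Hspa1a in myofibroblasts sits between 507 and 717 in all 4 libraries, and Hsph1 in ciliated cells spreads from 67.1 to 892.

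Among the same 9 types, both HSP90 genes and the HSP110 gene were highest in multiciliated cells, which carry motile cilia in the airway. Hsp90ab1 stood there at 4618, 2862, 2328 and 1099 CPM, but in the Hgf iPCKO the immune cells, outside the 9 types, reached 3053 CPM. Hsp90aa1, the inducible HSP90, stood at 6618 CPM in ciliated cells of the Bdnf control, 4185 in the Bdnf iPCKO, 2930 in the Hgf control and 1323 in the Hgf iPCKO, and the next type, AT1, spanned 494 to 1358. Hsph1, the nucleotide exchange factor, stood at 892, 438, 314 and 67.1 CPM in ciliated cells and at 2.60 to 182 in the 8 other types compared in both lungs. The 10 members together made up 1.57%, 1.10%, 0.686% and 0.344% of all UMIs of ciliated cells. In the cortex neurons were highest for both genes, with Hsp90aa1 at 1642 and 1553 CPM and Hsph1 at 260 and 282, and no other cortical type exceeded 77.1 CPM of Hsph1.

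The constitutive Hspa8 and the mitochondrial chaperonin were spread more evenly over types. Hspa8, which handles the everyday folding load of the cytosol, spanned 719 to 1829 CPM over 10 types of the Bdnf pair and 171 to 1096 over 10 types of the Hgf pair, and in the cortex it was highest in neurons (1438 and 1328 CPM). Hspe1, the lid of the chaperonin, ran from 117 to 226 CPM in club cells over the 4 lung libraries and from 46.3 to 73.4 in endothelial cells. Hspd1, the barrel of the chaperonin, ran from 91.1 to 311 CPM in ciliated cells and from 35.0 to 81.4 in AT1 cells, and in the cortex from 45.0 CPM in endothelial cells to 148 in neurons.

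Hspb1 marked another set of cells. Matrix fibroblasts (444 to 1204 CPM over 4 libraries), myofibroblasts (421 to 957) and smooth muscle of the Bdnf pair (1000 and 1615) were highest in the lung. Pericytes (20.7 to 86.1) had the lowest median of the 9 types, and immune cells (6.01, 28.0 and 11.5 CPM in the Bdnf control, Hgf control and Hgf iPCKO) were read lower in 2 of these 3 libraries, with all of these values below the 90.0 to 140 CPM of RNA outside cells in these libraries. In the cortex, vascular smooth muscle cells of the iPCKO stood at 1037 CPM, endothelial cells at 629 and 558, pericytes at 274 and 275, and neurons at 1.18 and 1.36, below the 158 and 134 CPM of RNA outside cells. Cortical pericytes thus held more Hspb1 than any of the 4 lung pericyte values, with no overlap. Hspe1 was likewise higher in cortical pericytes (111 and 120 CPM against 39.7 to 89.3), whereas Hspa1a was lower there (139 and 143 against 216 to 549). The other members overlapped in pericytes. Cortical endothelial cells also lay above all lung endothelial values for Hspb1 (279 to 472 CPM in lung), for Hsp90ab1 (2098 and 2132 against 987 to 1886) and for Hspe1 (120 and 121 against 46.3 to 73.4). The other members overlapped in endothelial cells. The share of all genes without overlap between the organs was not read, so these values are not set apart from a general organ difference. Organ, age and dissociation enzymes differ together between these libraries and cannot be told apart.

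**Figure D2:**
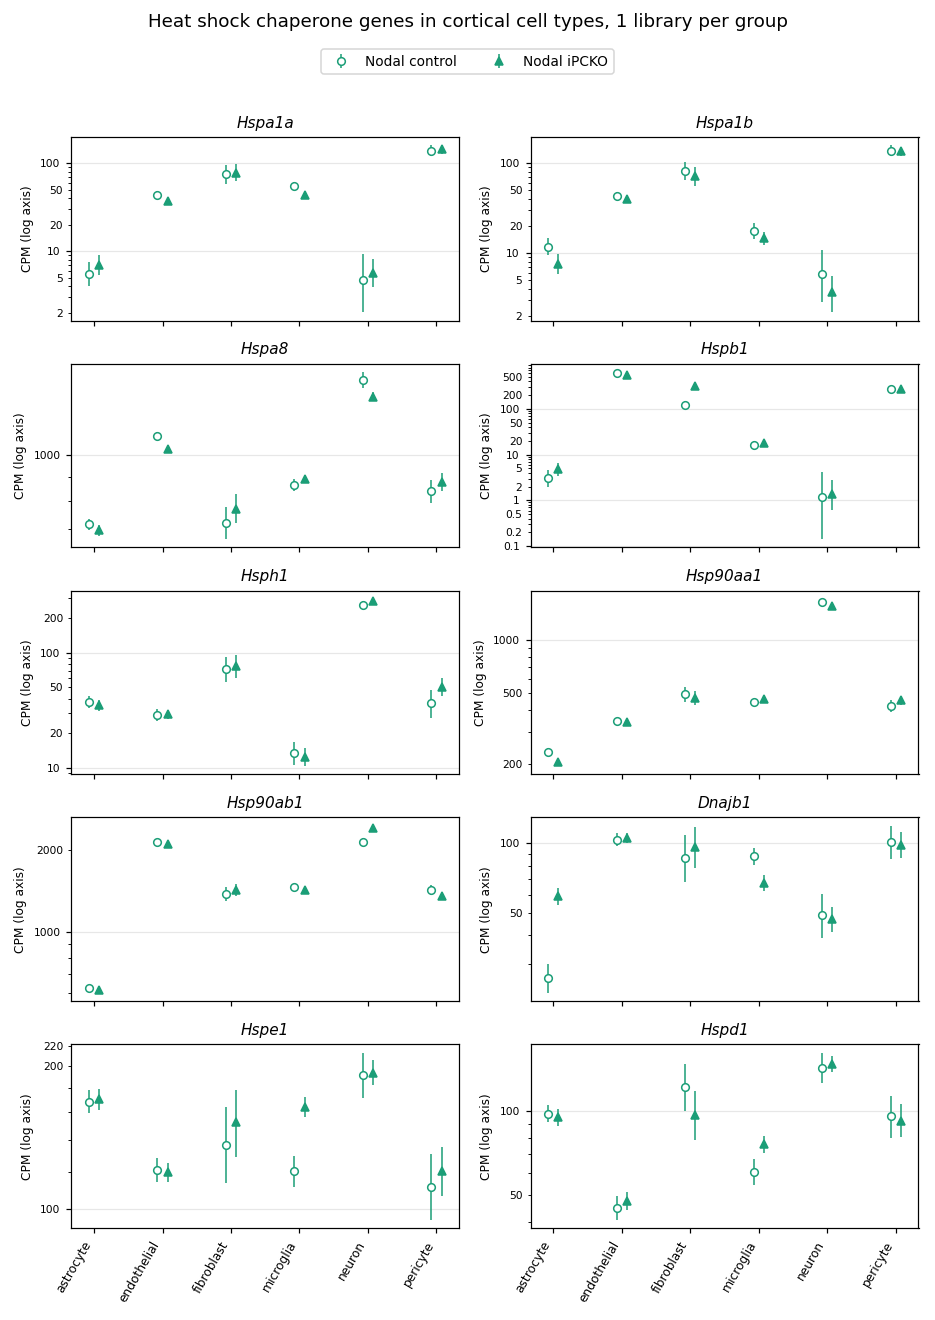
CPM (log axis) of the 10 members in 6 cell types of the control and Nodal iPCKO cortex, with exact 95% Poisson intervals. Hsph1 is highest in neurons (260 and 282) and Hspb1 in endothelial cells (629 and 558) among these 6 types, and the 2 libraries lie close together for most values.

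The lung with Bdnf targeted in pericytes was compared with its control in 10 lung cell types, which asks whether a pericyte signal alters the chaperone level of other cells. Of 100 member values (10 genes in 10 types, each resting on at least 20 UMIs), 8 were higher by 1.5-fold and 20 were lower. Among all genes in the same types 10.9% of values were higher and 7.37% lower, so the share of lower member values was above the background and that of higher values was below it. Since members are abundant, the shares were also read among values of at least 200 UMIs, where 18 of 93 member values were lower (19.4%, against 2.66% of all genes) and 8 were higher (8.60% against 4.26%), so that there both shares were above the background. The median log2 ratio of the members was -0.16, beside 0.01 for all genes.

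Hspb1 and Hsph1 gave 11 of the 20 lower values. Hspb1 stood at 361 CPM in AT1 cells of the Bdnf control and 137 in the iPCKO, a log2 ratio of -1.40 (-1.49 to -1.31), and it was also lower by 1.5-fold in club, matrix fibroblast, ciliated, AT2 and myofibroblast cells. The iPCKO value in AT1 cells is close to the level in RNA outside cells (140 and 126 CPM), both AT2 values (124 and 78.3 CPM) lie below it, and the ciliated value turned from -0.78 to 0.22 under a stricter purity limit on the cell gate. Hsph1 was lower by 1.5-fold in 5 types, with log2 ratios of -1.03 (-1.13 to -0.92) in ciliated cells, -0.64 in AT1 cells, -0.60 in matrix fibroblasts and -0.59 in club cells. In pericytes the Hsph1 ratio of -2.13 (-3.21 to -1.18) rests on 56 and 11 UMIs. RNA outside cells carried Hsph1 at 91.6 and 88.4 CPM. The iPCKO levels in AT1 cells (79.5 CPM) and pericytes (41.5 CPM) lie below it, and its part in them was not tested. The ciliated levels of 892 and 438 CPM stood clear of it. Among 4643 genes tested in all 10 types, 0.323% were lower by 1.5-fold in at least 5, and both genes belong to these.

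The other 8 members gave 9 lower values, of which 4 were in ciliated cells, 3 in pericytes and 2 in AT1 cells. In ciliated cells Hsp90aa1 (log2 ratio -0.66, -0.70 to -0.63), Hsp90ab1 (-0.69), Hspe1 (-0.79) and Hspd1 (-0.73) were lower by 1.5-fold in the Bdnf iPCKO, so that with Hspb1 and Hsph1 6 of 10 members were lower there against 6.08% of 12123 genes, and 2 of 10 were higher against 8.18%. Hspa8, at 1829 and 1606 CPM, and Dnajb1, at 333 and 334 CPM, were within 1.5-fold. With whole-number entries only, the ciliated ratio of Hsp90aa1 turned to 1.23 and that of Hspa8 went from -0.19 to 0.67, on 6.01% and 22.7% of the Hsp90aa1 UMIs and 22.1% and 40.6% of the Hspa8 UMIs in the control and the iPCKO. This setting drops all UMIs of a gene in a barcode whose value holds a fraction. The loss can depend on the level of the gene itself, so the turn cannot be assigned to shared reads. With all entries, Hspa1a went the other way from the lower members, from 155 to 456 CPM (1.55, 1.39 to 1.73) beside 138 and 176 CPM in RNA outside cells, as did Hspa1b, from 372 to 601 (0.69, 0.57 to 0.81). After thinning, Hsph1 was found in 48.9% of control and 24.3% of iPCKO ciliated cells, whereas Hspa1a or Hspa1b was found in 22.6% and 38.0%. The ciliated gate held 186 and 292 cells with median depths of 11199 and 8608.5 UMIs. Its club cell markers summed to 5927 and 4356 CPM, against 78207 and 91619 CPM in club cells of the same libraries. Its own markers summed to 6182 and 5745 CPM. The part of these differences in the ciliated ratios was not tested.

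In AT1 cells Hsp90aa1 was 1358 CPM in the Bdnf control and 871 in the iPCKO (-0.64, -0.68 to -0.60), and Hsp90ab1 was 1911 and 1191 (-0.68, -0.71 to -0.65). Pericytes, the cells targeted, had 4 of 10 members lower by 1.5-fold, against 12.5% of 5265 genes, and none higher, against 15.2%, with a median log2 ratio of -0.45. Beside Hsph1 these were Hsp90aa1 (838 and 483 CPM; -0.80, -1.11 to -0.48), Hspa8 (1140 and 719; -0.66, -0.92 to -0.40) and Hspd1 (120 and 79.2; -0.60, -1.45 to 0.21), in 77 and 92 cells. Club cell markers in the pericyte gate summed to 494 CPM in the Bdnf control and 1554 in the iPCKO, and their part in these ratios was not tested.

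Other mesenchymal cells of the Bdnf pair differed from type to type. In matrix fibroblasts Hspa1a was 151 CPM in the control and 284 in the iPCKO (0.92, 0.68 to 1.15) and Hspb1 was 893 and 444 (-1.01, -1.17 to -0.86). The control level of Hspa1a is close to the 138 CPM of RNA outside cells, which was 176 in the iPCKO. In the matrix fibroblast gate its own markers summed to 32276 and 25377 CPM, myofibroblast markers to 235 and 460 and club cell markers to 670 and 1632, and their part in these ratios was not tested. Smooth muscle cells, 94 in the control and 192 in the iPCKO, were the only type of the pair with 4 members higher (12.7% of all genes were) and none lower (14.4%): Hspa1b at 355 and 723 CPM (1.03), Hspa1a at 282 and 463 (0.72), Hspa8 at 1004 and 1639 (0.71) and Hspb1 at 1000 and 1615 (0.69). Their own markers summed to 23255 and 21499 CPM. Dnajb1 was within 1.5-fold in all 10 types, from -0.20 to 0.35, and the member ratios ran from -0.55 to 0.21 in endothelial cells and from -0.46 to 0.35 in adventitial fibroblasts.

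**Figure D3:**
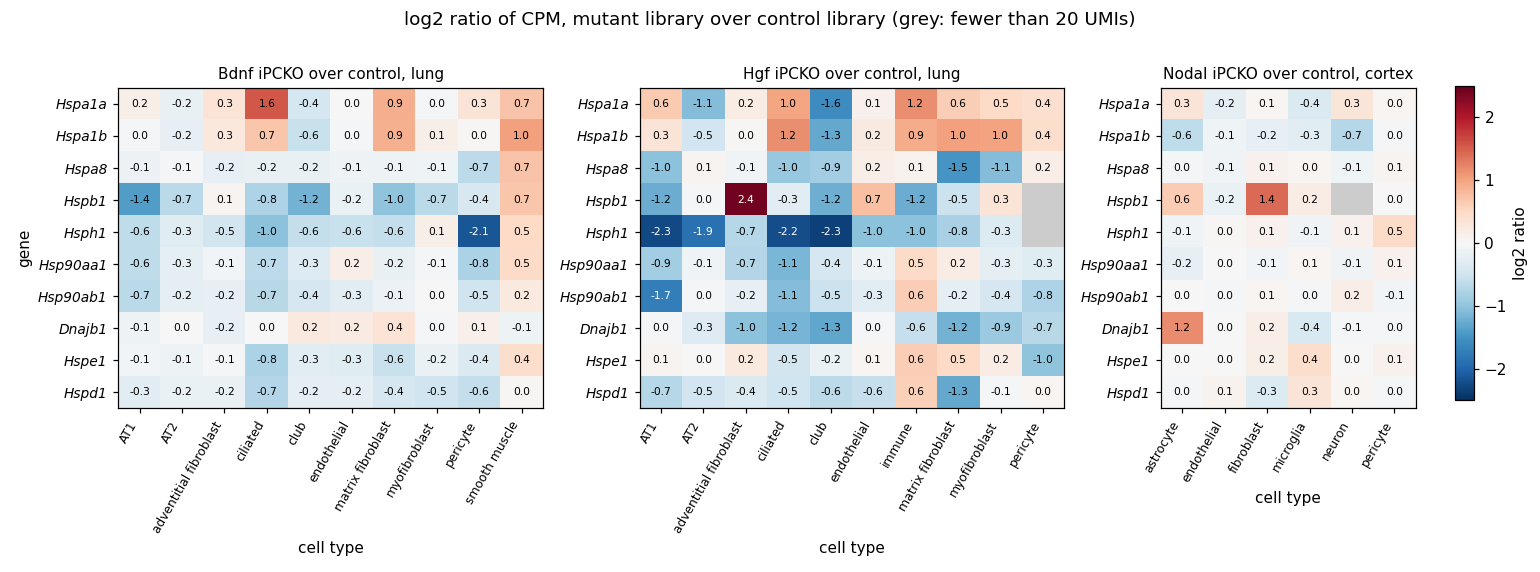
Log2 ratio of iPCKO over control of each member (rows) in each cell type (columns) for the Bdnf, Hgf and Nodal pairs, with blue below 0, red above 0 and grey where fewer than 20 UMIs were found. Lower values gather in the ciliated columns of both lung pairs (Hsph1 at -1.03 and -2.23) and in club and AT1 cells of the Hgf pair, and most cortical values lie near 0.

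The lung with Hgf targeted was compared in the same way in 10 lung cell types. Of 98 member values tested, 13 were higher by 1.5-fold and 35 lower, against 17.7% and 18% of all values, and among values of at least 200 UMIs 22 of 66 were lower (33.3%, against 13% of all genes) and 7 higher (10.6% against 11%). The median log2 ratio of the members was -0.28, beside -0.01 for all genes. All genes were spread more widely in this pair than in the Bdnf pair, and its libraries were shallower.

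Hsph1 was lower by 1.5-fold in 8 of the 9 types in which it could be tested, against 18% of all values, with a median log2 ratio of -1.03. In ciliated cells it was 314 CPM in the control and 67.1 in the iPCKO (-2.23, -2.49 to -1.97), and after thinning 24.7% and 4.61% of ciliated cells held it. In AT1 cells it was 35.3 and 7.35 CPM (130 and 21 UMIs; -2.27), in club cells 24.1 and 4.95 (49 and 14 UMIs; -2.34) and in AT2 cells 9.33 and 2.60. RNA outside cells carried Hsph1 at 34.4 and 22.5 CPM in these libraries. The AT1, AT2 and club levels lie close to it or below it, and among the epithelial types only the ciliated level stood clear of it. The part of RNA outside cells in the AT1, AT2 and club levels was not tested. The Hsph1 intervals cover no change in adventitial fibroblasts (97 and 12 UMIs; -1.72 to 0.15) and matrix fibroblasts (25 and 6 UMIs; -2.39 to 0.51).

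Dnajb1, the HSP40 partner, was below its control in all 10 types and by 1.5-fold in 6, with a median of -0.81. It was 204 and 90.6 CPM in ciliated cells (-1.17, -1.42 to -0.92), 129 and 52.2 in club cells (-1.30, -1.60 to -1.01) and 189 and 99.9 in myofibroblasts (-0.92, -1.49 to -0.34), but 94.9 and 91.8 in endothelial cells and 50.8 and 50.1 in AT1 cells. The Dnajb1 intervals cover no change in endothelial cells (-0.16 to 0.07) and AT1 cells (-0.35 to 0.30). RNA outside cells carried 51.6 and 48.4 CPM of Dnajb1, close to the AT1 levels and the iPCKO level of club cells, and its part in them was not tested. In pericytes the Dnajb1 ratio of -0.69 (-1.83 to 0.49) rests on 12 and 18 UMIs, and the interval covers no change. Of 3329 genes tested in all 10 types of this pair, 11.2% were below the control in at least 9, and 5.53% were lower by 1.5-fold in at least 5. Hspa8 also passed that limit, in 5 types, among them matrix fibroblasts (471 and 171 CPM; -1.47, -2.03 to -0.95), myofibroblasts (885 and 417; -1.09) and AT1 cells (448 and 219; -1.03). With whole-number entries only, the myofibroblast ratio of Hspa8 was -0.39, on 47.8% and 77.2% of its UMIs in the control and the iPCKO. The median of Hspa8 over types went from -0.48 to -0.17.

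Both HSP90 genes were lower in ciliated and AT1 cells of the Hgf iPCKO. Hsp90aa1 was 2930 and 1323 CPM in ciliated cells (-1.15, -1.21 to -1.08), and Hsp90ab1 was 2328 and 1099 (-1.08, -1.16 to -1.01). In AT1 cells Hsp90ab1 was 1254 and 380 CPM (-1.72, -1.82 to -1.63), the largest difference of that gene in any type. Ciliated markers in the AT1 gate summed to 1086 CPM in the Hgf control and 269 in the iPCKO, and to 717 and 446 in the Bdnf pair. In ciliated cells of these controls they summed to 9131 and 6182 CPM. Whether the marker UMIs in the AT1 gate come from ciliated cells was not tested, nor was their part in the AT1 ratios. Under the stricter gate the AT1 ratio of Hsp90ab1 was -1.81.

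The mitochondrial partners did not move alike in the Hgf pair. Hspd1 was below its control in 8 of 10 types and lower by 1.5-fold in 3, against 18% of all values. Among them were AT1 cells (57.4 and 35.0 CPM; -0.71, -1.07 to -0.36) and club cells (90.0 and 57.8; -0.65, -0.96 to -0.34). Hspe1 was below its control in 4 of 10 types, with a median of 0.07 against -0.49 for Hspd1 and -0.01 over all genes, so Hspe1 lay near the background. In matrix fibroblasts the Hspd1 ratio of -1.28 rests on 46 and 8 UMIs.

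Club cells of the Hgf pair, 221 in the control and 413 in the iPCKO, had all 10 members below the control and 7 lower by 1.5-fold, against 19.8% of 10893 genes. Hspa1a was 63.0 and 21.1 CPM there (-1.58, -2.04 to -1.13) and Hspa1b 60.4 and 24.8 (-1.28). RNA outside cells carried 39.8 and 70.0 CPM of Hspa1a and 49.0 and 69.4 of Hspa1b, so the control levels lie above it and the iPCKO levels below. Hspb1 was 169 and 72.7 CPM (-1.21, -1.47 to -0.96). The summed AT2 markers in the club gate were 9452 and 5103 CPM, a difference whose part was not tested.

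The inducible pair differed in both directions over the other types of the same lungs. In AT2 cells Hspa1a was 21.4 and 10.1 CPM (-1.09, -1.37 to -0.82) and Hspa1b 23.9 and 17.1 (-0.49, -0.71 to -0.27), all below the RNA outside cells. Hspa1a was 81.1 and 161 CPM in ciliated cells (0.99, 0.71 to 1.28), though 0.49 under the stricter gate, and Hspa1b was 64.4 and 144 (1.16, 0.84 to 1.49). In myofibroblasts Hspa1b was 294 and 590 CPM (1.01, 0.63 to 1.41), on 65 and 425 UMIs, and Hspa1a was within 1.5-fold (0.50). Hspb1 was 41.0 and 219 CPM in adventitial fibroblasts (2.41, 1.93 to 2.88), but only 11.2% and 12.1% of 258 and 91 cells held it and 97.5% of the iPCKO UMIs lay in the top 10% of cells. Hspb1 was also higher in endothelial cells, at 282 and 472 CPM (0.75, 0.69 to 0.81), on 3409 and 6740 UMIs. Cells gated by immune markers, 92 in each library, had 5 members higher (18.7% of all genes were), among them Hsp90ab1 at 2002 and 3053 CPM, and 2 lower (22.5%), Hspb1 (-1.24) and Hsph1 (-1.03). S100a8, S100a9, Chil3, Ngp, Igkc and Mpo were among the leading genes of this gate in both libraries. Ccl3 and Ccl4 led only in the control, and Elane and Prtn3 only in the iPCKO. The median depth of the immune cells was 3941 and 8101.5 UMIs. Whether the kinds of immune cell differed was not tested.

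**Figure D4:**
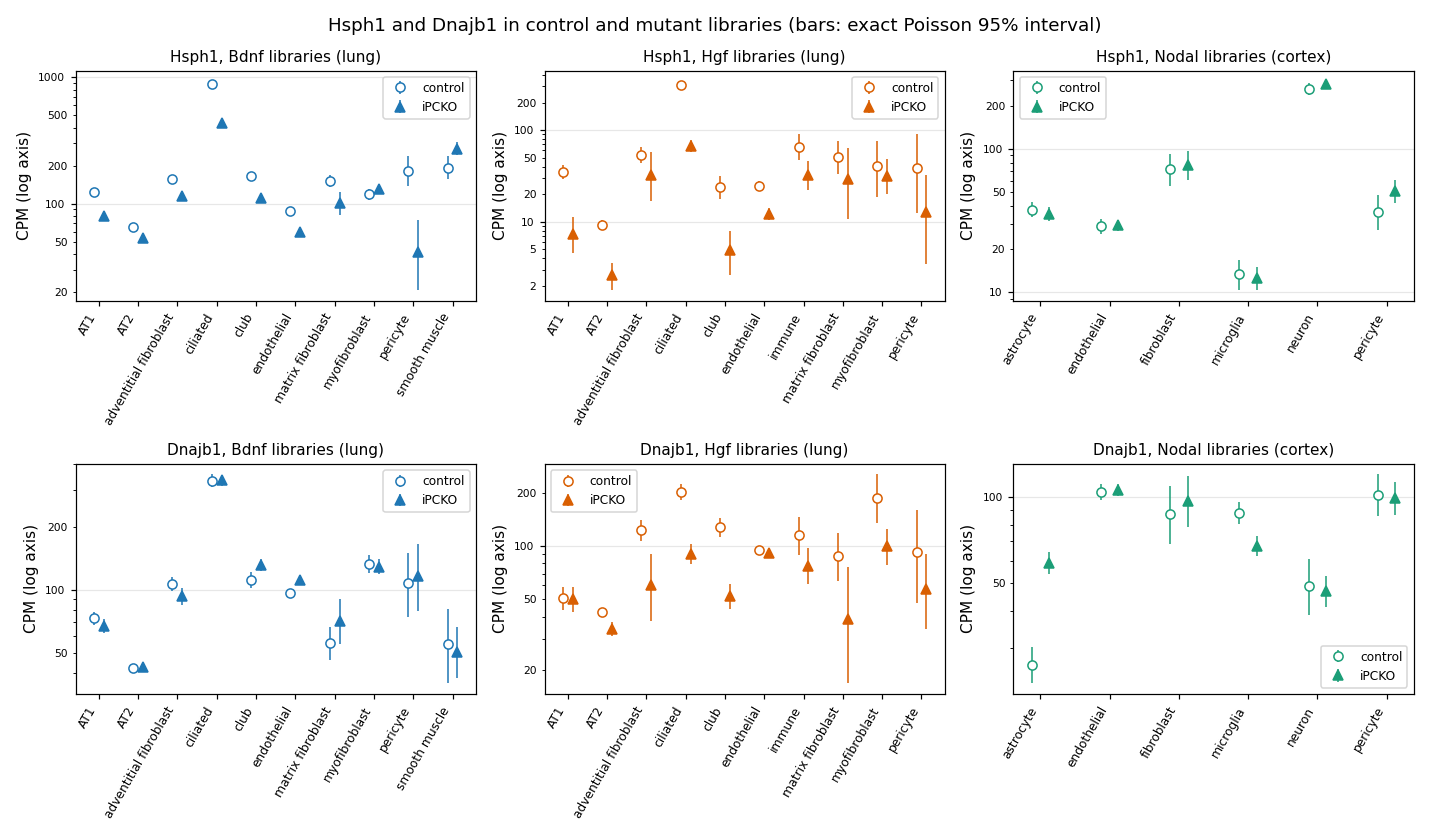
CPM (log axis) of Hsph1 and Dnajb1 per cell type in control (circles) and iPCKO (triangles) libraries of the Bdnf, Hgf and Nodal pairs, with exact 95% Poisson intervals. Hsph1 in ciliated cells is 892 and 438 in the Bdnf pair and 314 and 67.1 in the Hgf pair, whereas Dnajb1 is 333 and 334 in the first pair and 204 and 90.6 in the second.

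The 2 lung pairs have separate controls and could be set side by side in 9 shared types. Of 88 member values, 10 were lower by 1.5-fold in both pairs (2.26% of all genes were) and 4 were higher in both (3.2%), while 52 lay below 0 in both (30.9%) and 12 above 0 in both (30.8%). The 10 comprised Hsph1 in 4 types, and Hspb1, Hsp90aa1 and Hsp90ab1 in 2 types each. Among them, Hsph1 in matrix fibroblasts of the Hgf pair rests on 25 and 6 UMIs, and its interval (-2.39 to 0.51) covers no change. The 4 were Hspa1a and Hspa1b in ciliated cells and matrix fibroblasts. Hspb1 was lower in both pairs in AT1 and club cells, by -1.40 and -1.24 on the log2 scale in AT1 cells and by -1.18 and -1.21 in club cells. Dnajb1 and Hspa8 were lower by 1.5-fold in both pairs in no type, and Hsp90ab1 and Hspd1 lay below 0 in both pairs in 8 of 9 types each.

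For each member but Hspb1 and Dnajb1 the median ratio between the 2 lung controls was larger in size than that of either lung pair. Between the Hgf control and the Bdnf control, in 11 types, 75 of 108 member values with at least 20 UMIs were lower by 1.5-fold in the Hgf control, against 19.6% of all values, and 1 was higher, against 13.6%, which was Dnajb1 in matrix fibroblasts (0.66). Hsph1 and Hspa8 were lower in all 11 types, with median log2 ratios of -1.81 and -1.15, and 0.479% of 2925 genes tested in all 11 types were lower in every one. Hsp90aa1 was lower in 10 types (-1.18) and Hspa1b in 9 (-1.85), while Dnajb1 had a median of -0.03 and was lower in 2. For Hsph1 in ciliated cells the ratio of the controls, 892 to 314 CPM, is larger than that of the Bdnf pair. Floxed allele, depth and library cannot be told apart here, and both of these lungs were controls.

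In the cortex the members hardly differed between the Nodal iPCKO and its control. Of 59 member values in 6 types 3 were higher by 1.5-fold and 2 lower, against 7.46% and 9.22% of all values, with a median log2 ratio of 0.01 beside -0.02 for all genes. Among values of at least 200 UMIs 2 of 48 were higher (2.68% of all genes) and none lower (2.24%). Hspa8, Hsp90aa1, Hsp90ab1, Hspe1, Hspd1, Hsph1 and Hspa1a were within 1.5-fold in all 6 types. In neurons, 69 in the control and 211 in the iPCKO, Hsp90ab1 was 2135 and 2403 CPM (0.17, 0.12 to 0.22). In microglia, Hspe1 was 120 and 164 CPM (0.45, 0.32 to 0.58) and Hspd1 was 60.6 and 76.0 (0.33, 0.14 to 0.52). In pericytes, where Nodal was deleted, the 10 log2 ratios ran from -0.07 to 0.48.

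The 3 higher cortical values were Dnajb1 and Hspb1 in astrocytes (741 and 836 cells) and Hspb1 in fibroblasts. Dnajb1 was 26.1 CPM in control and 59.0 in iPCKO astrocytes (195 and 520 UMIs; 1.18, 0.94 to 1.42), on either side of the 54.0 and 58.2 CPM of RNA outside cells, with 2.56% and 4.78% of astrocytes holding it after thinning. Hspb1 was 121 and 321 CPM in fibroblasts (1.41, 1.09 to 1.74), in 63 and 77 cells whose own markers summed to 27224 and 21253 CPM, and 1.59% and 20.8% of them held it after thinning. Hspb1 in astrocytes, at 3.08 and 4.76 CPM, and the 2 lower values, Hspa1b in astrocytes (11.7 and 7.56) and neurons (5.89 and 3.71), lie far below the RNA outside cells.

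Other chaperone genes were read in groups by function. In the Bdnf pair the 15 chaperones of the endoplasmic reticulum had 31 of 148 values lower by 1.5-fold (20.9%, against 7.37% of all values) and none higher (against 10.9%), with a median log2 ratio of -0.34. In the Hgf pair 80 of 143 were lower (55.9% against 18%) and 5 higher (3.50% against 17.7%), with a median of -0.66. There Serpinh1, a collagen chaperone, was lower in all 10 types (median -1.91) and Pdia4, a protein disulfide isomerase, in 9 (-1.28), and in the Bdnf pair Pdia6 (-0.62) and Sdf2l1 (-0.90) were each lower in 6 types. The 16 co-chaperones had 16 of 157 values lower and 8 higher in the Bdnf pair and 41 of 144 lower and 17 higher in the Hgf pair, which is 10.2% and 28.5% lower against 7.37% and 18% of all values, and 5.10% and 11.8% higher against 10.9% and 17.7%. Ahsa1, which activates the HSP90 ATPase, had a median of -0.56 in the Bdnf pair, and Chordc1, an HSP90 co-chaperone, had -0.97 in the Hgf pair. Fkbp5, an HSP90-binding immunophilin induced by glucocorticoids, was higher in 10 of 10 types of the Hgf pair (median 2.73) and in 6 of 10 of the Bdnf pair (0.67).

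The heat shock factor group (Hsf1, Hsf2 and Hsbp1) had 3 of 27 values lower (11.1%, against 7.37% of all values) and 1 higher in the Bdnf pair, and 9 of 22 lower (40.9% against 18%) and none higher in the Hgf pair, where Hsf1 itself had a median of -0.62 over 5 types and Hsbp1, a negative regulator of HSF1, -0.50 over 10. The other small heat shock proteins had 6 of 37 values lower (16.2% against 7.37%) and 3 higher (8.11% against 10.9%) in the Bdnf pair, with Cryab at -0.58 and Hspb7 at 0.64, and in the cortex 6 of 20 were higher (30% against 7.46%), with Hspb2 at 1.13 in 2 types. In the Hgf pair 12 of 27 values of these small proteins were lower (44.4% against 18%) and 11 higher (40.7% against 17.7%). Other cytosolic HSP70, HSP110 and HSP40 genes had 4 of 126 values lower and 7 higher in the Bdnf pair and 30 of 115 lower (26.1% against 18%) and 9 higher (7.83% against 17.7%) in the Hgf pair, so that in the Bdnf pair both shares (3.17% lower and 5.56% higher) lay under those of all genes (7.37% and 10.9%), with Hspa2 at 0.48 and Hspa4l at -0.47 in the first and Dnajb2 at -0.89 and Dnajb4 at -0.73 in the second. The 8 subunits of the cytosolic chaperonin TRiC had median log2 ratios of -0.08 and -0.01 in the Bdnf and Hgf pairs, and the other mitochondrial chaperones had -0.01 and 0.06, with Trap1, the mitochondrial HSP90, at -0.67 in 6 types of the Hgf pair. Of these mitochondrial values 3 of 63 were lower (4.76% against 7.37%) and 2 higher (3.17% against 10.9%) in the Bdnf pair. In the Hgf pair 11 of 49 were lower (22.4% against 18%) and 6 higher (12.2% against 17.7%). In the cortex 3 of 90 values of endoplasmic reticulum chaperones, 5 of 94 of co-chaperones, 1 of 18 of heat shock factors and none of 48 of TRiC subunits were lower, each a smaller share than the 9.22% of all values. Of the other mitochondrial chaperones 1 of 42 cortical values was lower (2.38%) and 5 were higher (11.9% against 7.46%).

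**Figure D5:**
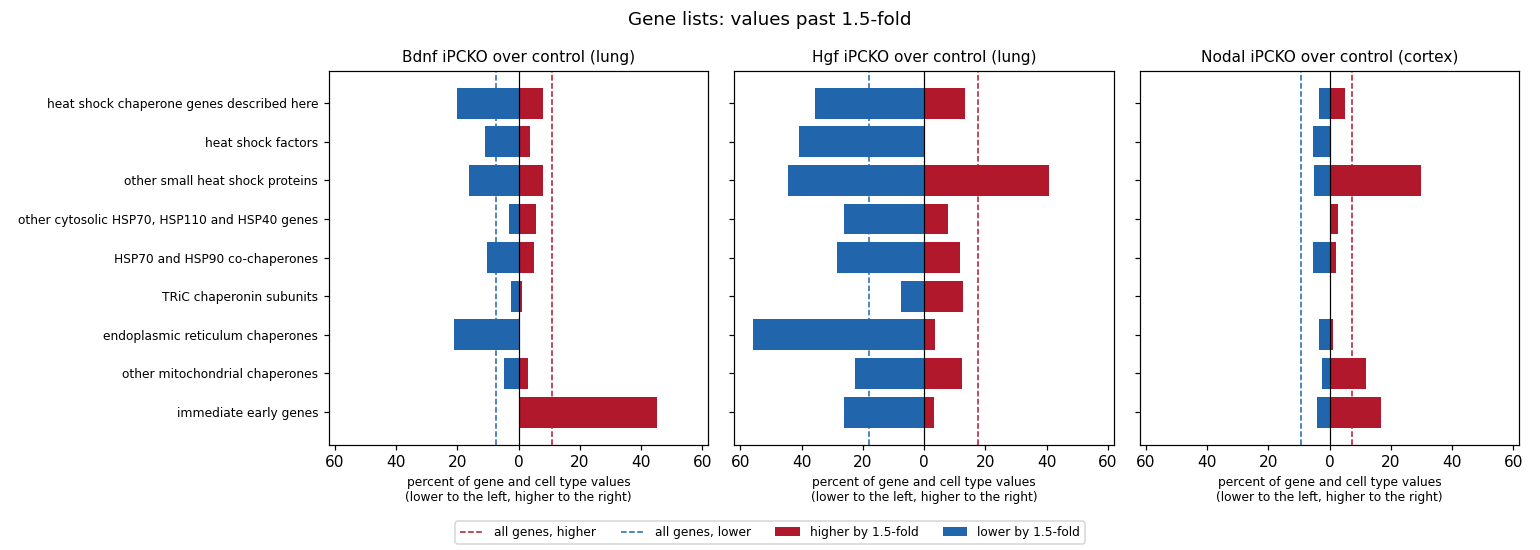
Percent of gene and cell type values lower (blue, to the left) or higher (red, to the right) by 1.5-fold for the members and 8 other gene groups in the Bdnf, Hgf and Nodal pairs, with the percent over all genes as dashed lines. Endoplasmic reticulum chaperones have 20.9% and 55.9% of values lower in the lung pairs, and immediate early genes have 45.4% higher in the Bdnf pair and 26.1% lower in the Hgf pair.

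The immediate early genes, a second group that warm dissociation is known to induce, were read beside the members. In the Bdnf pair 54 of 119 values were higher by 1.5-fold (45.4%, against 10.9% of all values) and none lower (median 0.55), led by Atf3 (0.92) and Nr4a1 (0.83), whereas in the Hgf pair 4 were higher (3.36% against 17.7%) and 31 lower (26.1% against 18%; median -0.27, beside -0.28 for the members), led by Atf3 (-0.74) and Fosb (-0.56). In the cortex 12 of 72 were higher (16.7% against 7.46%) and 3 lower (4.17% against 9.22%), with Ier2 at 0.29 and Fosb at 0.27. In the Bdnf pair 70 of 100 member values lay below 0, where the median over all genes was 0.01. Hspa1a and Hspa1b each had 3 of 10 values higher and 0 lower, against 10.9% and 7.37% of all values. The part of the immediate early genes' difference in the member ratios was not tested.

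The genes whose pattern was most like that of Hspa1a and Hspa1b summed were found by Pearson correlation of log2(CPM + 1) over library and cell type combinations, which share libraries and depth. In the lung, over 43 combinations and 7865 genes, they were Olfml2b (r = 0.83), Sfr1 (0.80), Mia3 (0.79), Ttbk2 (0.78) and Lama4 (0.77), and the nearest member was Hsph1 at 0.55. In the cortex, over 13 combinations, they were Flna and Ano6 (both 0.96), Wtip and Cnn2 (both 0.94) and Rbpms (0.93). The nearest member there was Hspb1 at 0.89, while Hsph1 was at -0.30 and Hspe1 at -0.89. The pattern of Hsph1, added after its values were seen, was nearest in the lung to St13 (0.84), Cacybp (0.81), Stip1 (0.80), Chordc1 and Dynll1 (both 0.78), and among the members to Hsp90aa1 (0.80) and Hspd1 (0.76), and it was farther from Hspa1a (0.46). In the cortex it was nearest to Chchd6 (0.99), Habp4 and Bex3 (both 0.98), 5730409E04Rik and Atp9a (both 0.97), none of them on a chaperone list, and among the members to Hspd1 and Hsp90aa1 (both 0.76).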

How the data were processed

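Single-cell libraries of mouse lung and cerebral cortex (1 library per genotype, 2 mice pooled, 6 libraries, 40000 cells prepared for each) were analysed from the matrices the authors deposited. Per the labels and the study's methods, the authors aligned and counted reads with STAR 2.7.10a (STARsolo) on GRCm39 and kept all barcodes. The deposited values are estimated counts of UMIs per gene and barcode, without normalization: reads that match several genes were shared between them, so 8.50% to 9.95% of the entries are fractional.

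Barcodes with at least 1500 UMIs (700 in the Hgf libraries) were scored for each class by the mean relative level of its markers. The relative level was the log level divided by the 99th percentile among barcodes with the marker, limited to 1. A barcode was assigned to the leading class at a mean of at least 0.25 with at least 3 of its markers detected. The mean of the next class had to be at most 0.5 of the leading mean. Mixed barcodes were left out in place of a doublet caller, and no mitochondrial filter was used. UMIs were summed per library and type where each library of a pair held at least 50 cells, and given as CPM (UMIs of the gene per 1000000 UMIs of the type) with exact Poisson intervals. Ratios carry conditional exact intervals, a value of 0 was set to 3 UMIs, and shares carry Clopper-Pearson intervals; all cover counting error only. A gene was compared in a type where both libraries of the pair held 20 or more of its UMIs between them, and a value was counted from 1.5-fold. Shares of cells were compared after thinning to 700 UMIs. No test was made, since each group is 1 library. The matrices of 6 libraries were used; other deposited files were not used here.

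Named genes were the 10 members, the 2 genes of each other list with the largest absolute median log2 ratio per pair, and the 5 genes most correlated with Hspa1a and Hspa1b summed among genes with a mean of at least 20 CPM. The members and lists were chosen with earlier results of these data known. The 9 alternatives were a doubled minimum of UMIs per barcode, a mitochondrial filter, a stricter limit on markers of a second class, mixed barcodes kept, the deepest barcodes left out, median-of-ratios scaling, whole-number entries only, the mean over cells in place of the sum, and genes with at least 1 UMI. Calculations used Python 3.11.15, numpy 2.4.6, scipy 1.17.1, pandas 2.3.3 and matplotlib 3.10.9, and the scripts were tested on simulated data. Reads matching several genes touched the members unequally: entries with a fraction held 20.6% to 46.9% of Hspa8 UMIs and 14.4% to 44.0% of Hsp90aa1 UMIs per library, at most 1.13% of Hsph1 UMIs and none of Dnajb1.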

Additional observations from a re-analysis of the deposited data

Results flagged for a closer look

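The immediate early genes had opposite signs in the lung pairs. Their median log2 ratio of iPCKO over control was 0.55 in the Bdnf lungs and -0.27 in the Hgf lungs, over 119 values in each. Each pair is a single library per genotype, and the difference between the pairs was not tested.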

How the results depend on the processing

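Across the alternatives, apart from the limit of at least 1 UMI, which recomputes no ratio, 1794 of 1985 recomputed member ratios stayed within the counting interval of the reported value. Another 189 moved outside it. A further 2, both past 1.5-fold in the reported value, changed sign. Hspb1 in ciliated cells of the Bdnf pair became 0.22 with a stricter limit on markers of a second class. Hsp90aa1 in the same cells became 1.23 when only whole-number entries were kept, which left 6.01% of its control UMIs and 22.7% of its iPCKO UMIs. That setting drops all UMIs of a gene in a barcode with a fractional value, so it can remove more where the level is higher. The 189 include ratios within 1.5-fold that changed sign, such as Hspa8 in the same cells (0.67) and Hspa1b in cortical fibroblasts (from -0.21 to 0.48) with whole-number entries. Of the counts of member values past 1.5-fold, higher values of the Bdnf pair were 5 in place of 8 both with the stricter limit and with mixed barcodes kept. Lower values of the Hgf pair were 23 in place of 35 with the stricter limit, which left 59 values in 6 types. Lower values of the Nodal pair were 1 in place of 2 with a mitochondrial filter and without the deepest barcodes. The median of Hsph1 ran from -0.62 to -0.43 in the Bdnf pair and from -1.54 to -1.01 in the Hgf pair, and that of Dnajb1 from -0.89 to -0.47 in the Hgf pair. With whole-number entries the medians over the types of the Bdnf pair changed sign for Hsp90aa1 (from -0.21 to 0.04) and Hspa8 (from -0.14 to 0.09). No paired analysis was possible because each group is 1 library, and no library could be left out for the same reason. Hsph1 and Hspb1 in pericytes of the Hgf pair and Hspb1 in neurons had fewer than 20 UMIs and were not compared.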
